A study of Mus musculus with 8 samples.

Results

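The dual-specificity MAPK phosphatases were followed in mouse spleen neutrophils with and without the chemokine receptor Cxcr2. The family was taken as 10 genes chosen by name, Dusp1, Dusp2, Dusp3, Dusp4, Dusp5, Dusp6, Dusp7, Dusp10, Dusp16 and Dusp22, out of 55414 gene identifiers counted in each library. All 10 were found under their Ensembl identifiers, and 10 of 10 passed the filter on low counts that left 16778 genes for testing. Neutrophils were sorted as CD45+ CD11b+ Ly6G+ F4/80- cells, after an enrichment for CD11b, from the spleens of 10-week-old mice, with 1 RNAseq library per mouse. The 4 WT mice and the 4 Cxcr2-/- mice were on the FVB background and were housed free of specific and opportunistic pathogens. The deletion is present in every cell of the Cxcr2-/- mice, so that a change within the neutrophil and a change passed on from other Cxcr2-deficient cells cannot be told apart.

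A MAP kinase becomes active when a threonine and a tyrosine in its activation loop are both phosphorylated, and a dual-specificity phosphatase removes both phosphates. Several of these phosphatases are themselves immediate early genes, induced by the MAP kinases that they then switch off, so they act as a negative feedback on ERK, p38 and JNK. In neutrophils and macrophages, Dusp1 is known above all as a brake on p38 and on the production of inflammatory cytokines.

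The libraries were checked against their labels first. Cxcr2 stood at 1719 to 2252 CPM, the count relative to the TMM-normalized library size, in the 4 WT libraries and at 12.9 to 20.7 CPM in the 4 Cxcr2-/- libraries. Depth was between 34220182 and 46233555 counts on genes per WT library and between 37549648 and 43789253 per Cxcr2-/- library. The 8 neutrophil markers were detected in all libraries, with a summed level of 32928 to 46032 CPM in WT and 66559 to 79749 CPM in Cxcr2-/- neutrophils. Most of that sum was S100a8 and S100a9, and 5 of the 8 were higher while 2 were lower, Csf3r, the receptor for the growth factor G-CSF, at -1.06 and Ptprc, which encodes CD45, at -0.77 (edgeR, adjusted p = 1.11e-05 and 1.42e-04). All 9 of the immature neutrophil markers were higher in Cxcr2-/- neutrophils (edgeR, adjusted p under 0.05), and Elane, a primary granule protease, was at 12.0, 14.5, 55.5 and 93.2 CPM in Cxcr2-/- replicates 1 to 4 against at most 2.11 CPM in WT. Markers of immaturity therefore moved with the genotype, and their part in the results on the phosphatases was not tested. Ly6g, Retnlg and Mmp8, of the 8 neutrophil markers, were higher as well, at 239%, 177% and 141% of the WT mean (edgeR, adjusted p = 1.49e-05, 4.80e-04 and 0.0082). In the paper, a high level of Ly6G on the cell marks the more mature neutrophils. That is protein per cell, unlike the bulk RNA given here. By flow cytometry the paper reported a larger share of immature Ly6G-low neutrophils in Cxcr2-/- spleen, and a smaller share of mature CD101+ ones. In such bulk samples, fewer cells of one kind and less RNA per cell cannot be told apart.

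The promoters of Dusp1, Dusp2 and Dusp5, the members with the lowest log2 fold changes, and of Dusp6 are shown with the response elements found in them. The sequences are from RefSeq (GRCm38.p6), which had a promoter for 9 of the 10 members. Each was searched on both strands, from 250 bases before to 50 after the start. The bases of this window up to the first annotated exon met in it on the same strand are printed 5′ to 3′. Capitals mark the cyclic AMP response element (CRE, TGACGTCA), its short form (TGACG or, on the other strand, CGTCA, which also lies within each CRE) and the CArG box bound by serum response factor. Dusp1 (chr17:26508520-26508722, minus strand) held 1 CRE, at 143 bases before the start, and a further short CRE at 191 bases. The annotated Dusp1 gene reaches further upstream, to position 26562128, so the printed bases lie inside it and before only 1 of its annotated starts.
Dusp1: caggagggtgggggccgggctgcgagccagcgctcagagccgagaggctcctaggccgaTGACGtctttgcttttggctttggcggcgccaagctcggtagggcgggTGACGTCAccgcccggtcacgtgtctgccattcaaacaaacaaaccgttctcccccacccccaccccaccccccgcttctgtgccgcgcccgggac
Dusp2 (chr2:127335909-127336158, plus strand) held none of the motifs searched in the printed bases, and a short CRE at 6 bases after the start.
Dusp2: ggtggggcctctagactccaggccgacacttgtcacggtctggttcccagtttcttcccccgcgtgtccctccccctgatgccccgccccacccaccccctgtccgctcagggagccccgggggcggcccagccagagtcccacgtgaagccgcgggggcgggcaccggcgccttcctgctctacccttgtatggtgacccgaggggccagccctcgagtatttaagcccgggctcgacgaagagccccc
Dusp5 (chr19:53528895-53529108, plus strand) held 2 CArG boxes side by side, from 82 and 72 bases before the start, and a short CRE at 55 bases.
Dusp5: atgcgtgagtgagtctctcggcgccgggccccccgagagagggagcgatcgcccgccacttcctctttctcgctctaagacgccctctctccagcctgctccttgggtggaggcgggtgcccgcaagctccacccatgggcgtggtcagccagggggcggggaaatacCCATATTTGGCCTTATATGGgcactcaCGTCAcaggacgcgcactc
Dusp6 (chr10:99262981-99263230, plus strand), a member with a smaller difference, held none of the motifs searched in this window and is printed for comparison.
Dusp6: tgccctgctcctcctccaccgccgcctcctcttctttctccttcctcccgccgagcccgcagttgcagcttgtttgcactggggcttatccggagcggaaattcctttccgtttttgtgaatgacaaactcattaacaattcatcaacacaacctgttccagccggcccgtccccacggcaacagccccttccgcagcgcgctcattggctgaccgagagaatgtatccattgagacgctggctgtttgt

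Of 32851 promoters of the same length, 1.79% held a CRE, 20.8% a short CRE and 1.63% a CArG box. Dusp16 held a short CRE at 70 bases before the start, and Dusp22 held 2 overlapping NF-kB consensus matches, which 8.46% of all promoters hold. Dusp3, Dusp7 and Dusp10 held none of the motifs searched, which also included TGANTCA, the AP-1 site, and TATAAA, the TATA box (7.81% and 13.6% of all promoters). A match is a description of the letters and not a measured binding site.

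Transcripts of 6 of the 10 members, Dusp1, Dusp2, Dusp5, Dusp6, Dusp7 and Dusp16, were down-regulated in Cxcr2-/- neutrophils (edgeR, adjusted p under 0.05). None was up-regulated, 0 of 10, and 0 were higher at an unadjusted p under 0.05 or with DESeq2. Over all genes tested, 21.0% were lower and 23.7% were higher at the same threshold. The same 6 members also fell by at least 1.5-fold, as 15.7% of all genes did, and in each of them every Cxcr2-/- library lay under every WT library, as in 19.1% of all genes. With the 1.5-fold threshold the calls over all genes were split evenly, 2628 higher and 2628 lower, but upper-quartile scaling turned this into 1975 higher and 3227 lower and moved the median log2 fold change of all genes from 0.01 to -0.11. The same 6 members passed under that scaling.

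**Figure D1:**
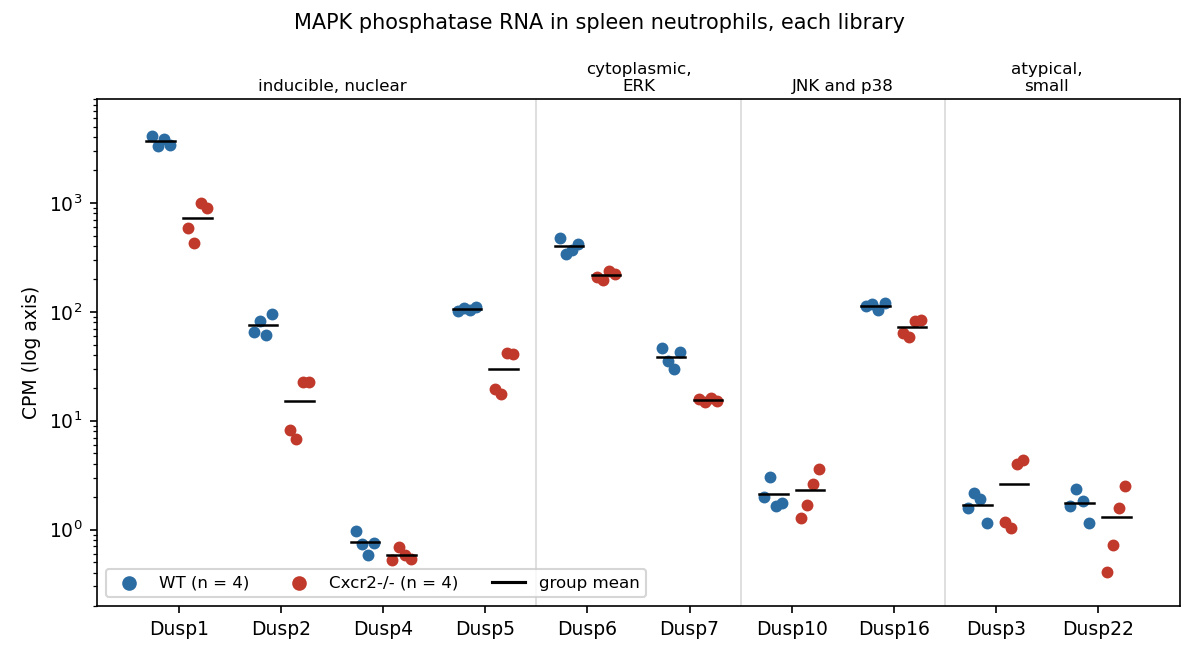
CPM of each member in each library, on a log axis, with WT in blue, Cxcr2-/- in red and the group mean as a black line. Both groups are separate for Dusp1, Dusp2, Dusp5, Dusp6, Dusp7 and Dusp16 and overlap for the other 4 members, all of them under 5 CPM, and CPM is not scaled for gene length, so heights compare libraries within a gene.

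Dusp1, Dusp2, Dusp4 and Dusp5 are the inducible nuclear phosphatases. Dusp1 (MKP-1), which acts on p38, JNK and ERK, stood at 4149, 3360, 3845 and 3436 CPM in the 4 WT libraries and at 590, 426, 988 and 898 CPM in the 4 Cxcr2-/- libraries. The highest Cxcr2-/- library was thus far under the lowest WT library. The mean fell from 3698 ± 369 to 725 ± 262 CPM (SD, n = 4 each), a log2 fold change of -2.35 ± 0.23 (SE, edgeR, adjusted p = 5.81e-06). Only 31 of the 16778 tested genes had a higher mean CPM than Dusp1, and 159 had a lower log2 fold change. Its exons share 11 bases with Ergic1 on the opposite strand, which was at 54.5 CPM at most and also fell (log2 fold change -2.15, edgeR, adjusted p = 2.07e-07).

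Dusp2 (PAC-1), a nuclear phosphatase of ERK and p38 found mainly in blood cells, was at 64.7, 81.7, 61.6 and 95.7 CPM in WT and at 8.22, 6.72, 22.8 and 22.9 CPM in Cxcr2-/- neutrophils. All Cxcr2-/- libraries were lower, and those of replicates 1 and 2 were the lowest. The log2 fold change was -2.32 ± 0.35 (SE, edgeR, adjusted p = 1.70e-04), a mean of 20.0% of the WT level.

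Dusp5, which is specific to ERK and holds it in the nucleus, was nearly constant in WT, at 102, 108, 104 and 110 CPM. In Cxcr2-/- neutrophils it was at 19.5, 17.7, 41.9 and 40.7 CPM, again with replicates 1 and 2 lowest. The log2 fold change was -1.83 ± 0.24 (SE, edgeR, adjusted p = 7.14e-05). A noncoding gene on the opposite strand, AC137853.2, shares 547 exon bases with Dusp5 and also fell. It was at 3.93 CPM at most. The strand setting of the counting was not given, so reads of such pairs cannot be told apart.

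Dusp4 (MKP-2), a close relative of Dusp1, was almost silent. Its level was 0.973, 0.744, 0.588 and 0.752 CPM in WT and 0.531, 0.692, 0.585 and 0.535 CPM in Cxcr2-/- neutrophils, from 21 to 44 counts per library. The groups overlapped, and the log2 fold change of -0.39 did not pass (edgeR, adjusted p = 0.31, 95% interval -1.11 to 0.33), so a fall as large as that of Dusp5 lies outside the interval.

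**Figure D2:**
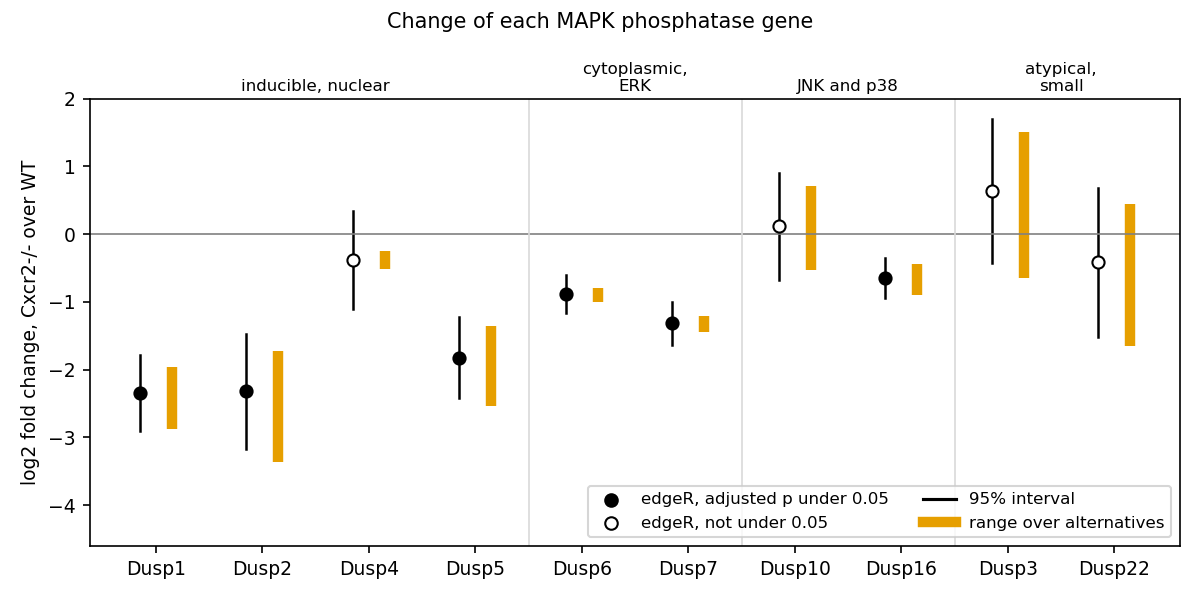
Log2 fold change of Cxcr2-/- over WT for each member, as the edgeR estimate with its 95% interval (circle and line, filled where the adjusted p was under 0.05) and as the range over 18 alternative settings (orange bar). The intervals and orange bars of the 6 down-regulated members stay under 0, while those of Dusp3, Dusp10 and Dusp22 reach both sides of it.

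Dusp6 and Dusp7 are cytoplasmic and selective for ERK. Dusp6 (MKP-3), the classical feedback inhibitor induced by ERK itself, was at 473, 337, 368 and 419 CPM in WT and at 209, 196, 235 and 224 CPM in Cxcr2-/- neutrophils. The Cxcr2-/- libraries were close to each other and all under WT, at 49.2% to 59.0% of the WT mean. The log2 fold change was -0.88 ± 0.12 (SE, edgeR, adjusted p = 6.54e-05).

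Dusp7 (MKP-X) was at 46.6, 35.3, 29.9 and 42.7 CPM in WT and at 16.0, 14.7, 16.0 and 15.2 CPM in Cxcr2-/- neutrophils. The 4 Cxcr2-/- libraries were within 38.2% to 41.5% of the WT mean, the narrowest range of the 10 members, although the WT libraries themselves varied. The log2 fold change was -1.32 ± 0.13 (SE, edgeR, adjusted p = 6.84e-06).

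Dusp10 and Dusp16 act mainly on JNK and p38. Dusp16 (MKP-7) was at 112, 117, 104 and 121 CPM in WT and at 63.9, 59.2, 81.8 and 84.8 CPM in Cxcr2-/- neutrophils. The groups did not overlap, and the fall was the smallest of the 6, a log2 fold change of -0.65 ± 0.12 (SE, edgeR, adjusted p = 8.20e-04). Dusp10 (MKP-5) was at 1.99, 3.05, 1.63 and 1.76 CPM in WT and at 1.26, 1.69, 2.64 and 3.57 CPM in Cxcr2-/- neutrophils. The values overlapped fully and the log2 fold change of 0.12 did not pass (edgeR, adjusted p = 0.80, 95% interval -0.67 to 0.90).

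Dusp3 and Dusp22 are small atypical phosphatases without the MAP kinase binding domain of the others. Dusp3 (VHR), an ERK and JNK phosphatase, was at 1.57, 2.17, 1.90 and 1.16 CPM in WT and at 1.16, 1.02, 4.04 and 4.33 CPM in Cxcr2-/- neutrophils. Cxcr2-/- replicate 1 lay at the bottom of the WT range, replicate 2 just under it and replicates 3 and 4 above it. The log2 fold change of 0.63 did not pass (edgeR, adjusted p = 0.26, 95% interval -0.43 to 1.70). It became 1.30 without Cxcr2-/- replicates 1 and 2 (adjusted p = 0.0017) and -0.65 without replicates 3 and 4 (adjusted p = 0.13), so no direction can be given. Its exons share 604 bases with Gm20659 on the opposite strand, which was at 0 in all libraries. The alternatives without a pair of libraries were chosen after the values were seen.

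Dusp22, a regulator of JNK signaling, was at 1.64, 2.37, 1.82 and 1.16 CPM in WT and at 0.404, 0.719, 1.58 and 2.53 CPM in Cxcr2-/- neutrophils. The groups overlapped, and the log2 fold change of -0.42 did not pass (edgeR, adjusted p = 0.48, 95% interval -1.52 to 0.69). Without Cxcr2-/- replicates 3 and 4 it was -1.65 (adjusted p = 0.0039) and 7 members were down-regulated, and without replicates 1 and 2 it was 0.23 (adjusted p = 0.61).

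The Cxcr2-/- libraries were thus not alike for all members. Dusp1 was at 15.9% and 11.5% of the WT mean in replicates 1 and 2 and at 26.7% and 24.3% in replicates 3 and 4. Dusp2, Dusp5, Dusp6, Dusp16, Dusp3, Dusp10 and Dusp22 were ordered the same way, with both of replicates 1 and 2 under both of replicates 3 and 4, whereas Dusp4 and Dusp7 were not. Replicates 3 and 4 were also those with more Elane and with a larger summed level of the B cell markers, 51.9 and 65.8 CPM against 31.2 and 29.1 CPM in replicates 1 and 2. The summed level of the 9 immature neutrophil markers ran the other way, at 58628.5, 49217, 48266 and 40505 CPM in Cxcr2-/- replicates 1 to 4. So did the sum of the T cell markers, at 139, 117, 98.2 and 90.8 CPM. Most of the immature marker sum was Ltf, Ngp and Camp, with Ltf at 26104 CPM in replicate 1 and 17392 CPM in replicate 4. Mpo, Prtn3 and Ctsg were instead higher in replicates 3 and 4, as Elane was, with Mpo at 19.1, 20.2, 81.2 and 146 CPM. Mki67, at 545 to 600 CPM, and Top2a, at 197 to 245 CPM, followed neither order. The share of counts on mitochondrial genes was 1.28%, 2.04%, 2.82% and 3.29% in Cxcr2-/- replicates 1 to 4 and at most 1.29% in WT. Read pairs that the counting assigned to no feature were 26.7% to 31.9% of the total in Cxcr2-/- libraries and 31.4% to 41.5% in WT libraries. The 10 genes with most counts took 17.0% to 19.2% of the counts in Cxcr2-/- and 9.45% to 11.6% in WT libraries. The part of these differences in the spread of the members was not tested.

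**Figure D3:**
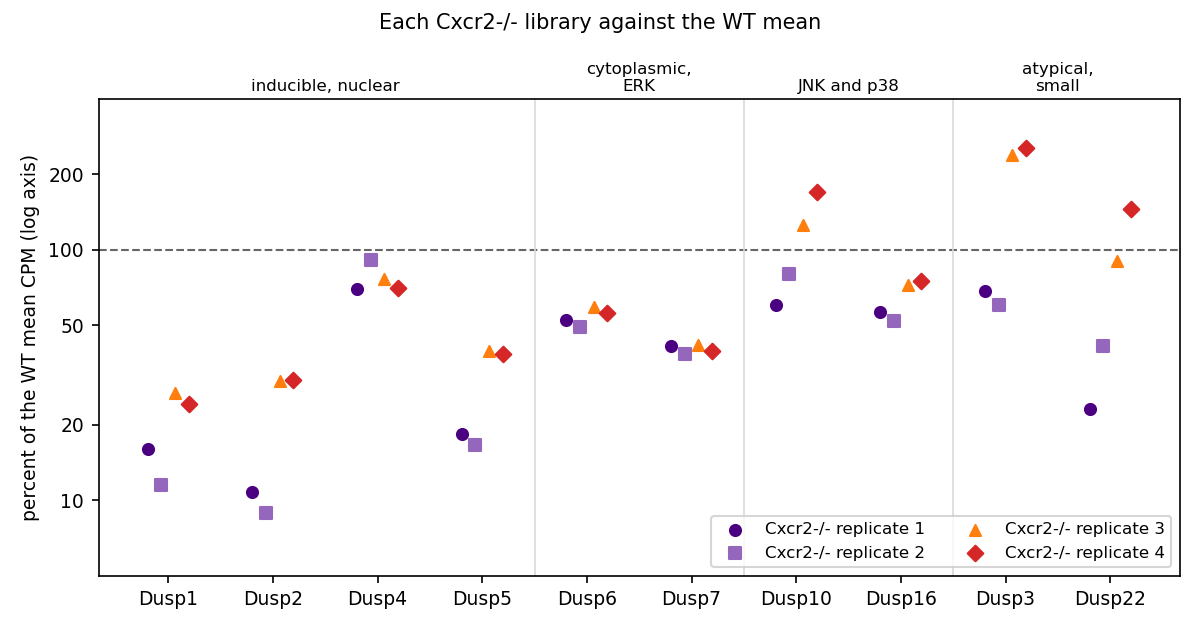
Each Cxcr2-/- library as a percent of the WT mean CPM, on a log axis, with a symbol and color per replicate and a dashed line at 100%. Dusp7 lies within 38.2% to 41.5% in all 4 libraries, while Dusp2 runs from 8.85% to 30.1% and Dusp3 from 60.3% to 255%.

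Markers of some other cell types also moved with the genotype. The 7 B cell markers summed to 65.4 to 148 CPM in WT and to 29.1 to 65.8 CPM in Cxcr2-/- neutrophils, and 6 of 7 were lower. The 8 macrophage or monocyte markers summed to 446 to 543 CPM and to 202 to 302 CPM, with 2 of 8 lower. Most of that sum was Csf1r, at 403 to 499 CPM in WT, while the macrophage marker C1qa was at 5.79 CPM at most in any library. The other marker that was lower, Adgre1, was at 26.6 to 36.5 CPM in WT and 9.60 to 16.3 CPM in Cxcr2-/- neutrophils. Its log2 fold change was -1.31 (edgeR, adjusted p = 5.76e-05). Vcam1 reached 22.2 CPM in WT replicate 2 but did not pass. T cell markers summed to 96.8 to 117 CPM in WT and to 90.8 to 139 CPM in Cxcr2-/- neutrophils, with 1 of 4 tested lower. Most of that sum was Cd3d, at 80.1 to 136 CPM, while Cd3e was at 0.563 CPM and Cd8a at 0.241 CPM at most. The lower one was Cd4, at 5.17, 14.1, 4.12 and 1.27 CPM in WT and 0.553 to 1.85 CPM in Cxcr2-/- neutrophils. Its ranges overlapped, with a log2 fold change of -2.20 (edgeR, adjusted p = 0.0075). NK cell markers were at 2.45 CPM at most (0 of 3 passed), dendritic cell markers at 5.64 to 24.4 CPM in WT and 3.76 to 6.51 CPM in Cxcr2-/- neutrophils (1 of 3 tested lower), erythroid markers at 7.56 CPM at most (0 of 3 tested passed) and platelet markers at 5.72 CPM at most (the 1 tested was lower). Eosinophil, basophil and mast cell markers summed to 38.8 to 56.0 CPM in WT and 34.9 to 57.0 CPM in Cxcr2-/- neutrophils, with 2 of 3 tested higher and 1 lower. With a covariate for the RNA of B, T, NK, macrophage and dendritic cells, the same 6 members passed, and Dusp1 was at -2.02 and Dusp16 at -0.52 (edgeR, adjusted p = 2.21e-05 and 0.012). Dusp3 passed as higher under that covariate, at 1.51 (adjusted p = 0.0067).

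Scaled for exon length, the order of the members in WT was Dusp1 at 1117 ± 111, Dusp6 at 127 ± 19.0, Dusp5 at 43.0 ± 1.45 and Dusp2 at 37.9 ± 7.92 CPM per kb (SD, n = 4). Dusp16 followed at 14.6 ± 0.950 and Dusp7 at 11.5 ± 2.22 CPM per kb. The remaining 4 members were under 0.7 CPM per kb, with Dusp10 first, then Dusp3, Dusp22 and Dusp4. The ranges of Dusp5 and Dusp2, of Dusp16 and Dusp7, and of Dusp3, Dusp22 and Dusp4 overlapped in WT, so these neighbors did not differ beyond their spread. In Cxcr2-/- neutrophils the order was the same except that Dusp16, at 9.29 ± 1.64 CPM per kb, came before Dusp2, at 7.56 ± 4.44 CPM per kb, and these overlapped as well.

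Dusp1 made up most of the family's RNA in both genotypes, but less of it without Cxcr2. Its share of the summed CPM per kb was 83.1%, 82.2%, 84.4% and 80.2% in WT and 65.8%, 59.9%, 71.1% and 69.8% in Cxcr2-/- neutrophils. The share of Dusp6 was 8.55% to 10.3% in WT and 17.9% to 29.1% in Cxcr2-/- neutrophils. The ranges did not overlap for either gene. The sum itself fell from 1353 ± 118 to 323 ± 96.5 CPM per kb (SD, n = 4 each).

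**Figure D4:**
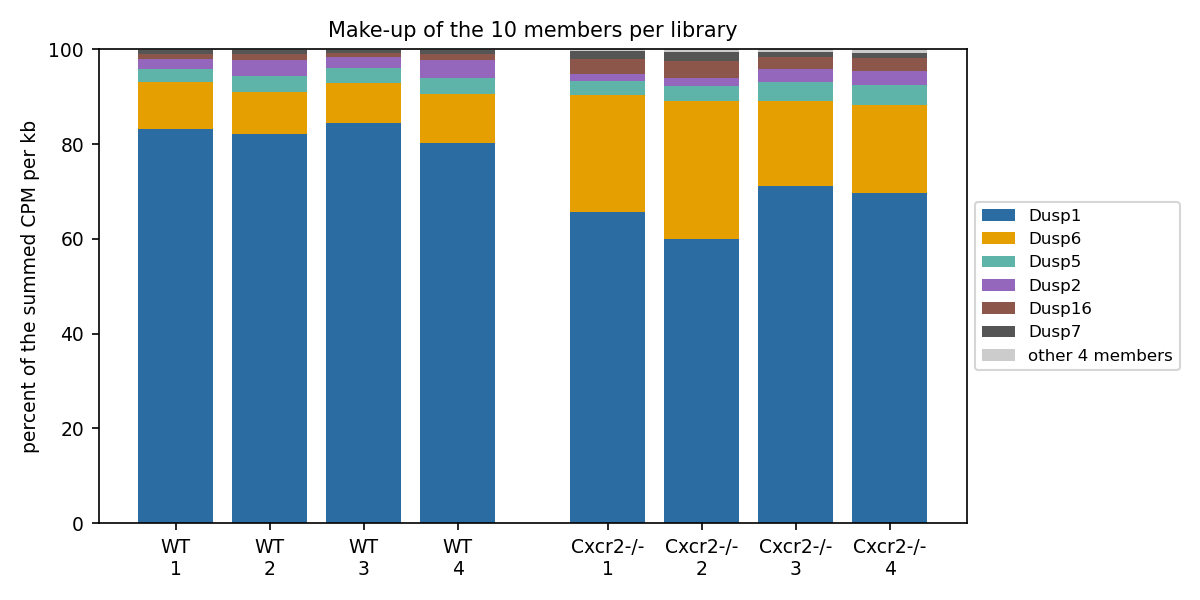
Share of each member in the summed CPM per kb of the 10 members, as a stacked bar for each library. Dusp1 takes 80.2% to 84.4% in WT and 59.9% to 71.1% in Cxcr2-/- libraries, and the band of Dusp6 is wider in the Cxcr2-/- libraries.

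Ratios of counts within a library, which do not depend on the scaling between libraries, were compared as well. There were 8.20 to 10.4 Dusp1 counts per Dusp6 count in WT and 2.17 to 4.19 in Cxcr2-/- neutrophils, without overlap. The ratio of Dusp1 to Dusp2 overlapped between the genotypes, at 35.9 to 64.1 and 39.2 to 71.8. The ratio of Dusp6 to Dusp7 was 9.55 to 12.3 in WT and 13.1 to 14.8 in Cxcr2-/- neutrophils, so Dusp7 fell further than Dusp6 in these libraries. Dusp6 counts per count of Mapk3, the gene of its substrate ERK1, were between 1.75 and 1.89 in WT and between 0.577 and 0.846 in Cxcr2-/- neutrophils. Dusp16 counts per count of Mapk14, the gene of its substrate p38, overlapped, at 0.196 to 0.223 in WT and 0.131 to 0.224 in Cxcr2-/- neutrophils. These ratios are descriptions and were not tested.

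The kinases that the phosphatases act on and the genes around them were then counted, each list beside the median of 0.01 over all genes. The shares over all genes tested were 23.7% higher and 21.0% lower. Of 16 further genes of the DUSP family, 8 were tested, 0 were higher and 1, Dusp18, was lower at -1.90 with a standard error of 0.25 (edgeR, adjusted p = 5.71e-05), and the median was -0.01. Among 10 tested MAP kinases 4 were higher and 1 was lower, with a median of -0.03. With RLE, another scaling between libraries, with upper-quartile scaling and with DESeq2, 4 were higher and 2 lower. Mapk6, the atypical kinase ERK3, rose by 1.42 with a standard error of 0.10 on the log2 scale (adjusted p = 3.69e-07). Mapk14, the main p38 kinase, fell by 0.34 with a standard error of 0.11 (adjusted p = 0.025) and did not pass without Cxcr2-/- replicates 3 and 4. Of the 7 MAP2 kinases, the enzymes that phosphorylate MAP kinases, 3 were higher and 0 lower, with a median of 0.30, led by Map2k1, the ERK kinase MEK1, at 0.54 with a standard error of 0.10 (adjusted p = 6.76e-04). With upper-quartile scaling 2 were higher and 1 lower.

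Of 9 tested MAPK-activated kinases 5 were higher and 2 were lower, with a median of 0.26. The count of 5 depended on TMM scaling, since 3 were higher and 2 lower with RLE scaling and with DESeq2. With upper-quartile scaling 3 were higher and 3 lower. Mapkapk3, a p38 target kinase, was at 0.74 and Rps6ka5, the kinase MSK1, at -0.63 (edgeR, adjusted p = 8.67e-04 and 1.81e-04). Of 12 tested inhibitors outside the DUSP family 2 were higher and 4 lower, with a median of 0.06. With RLE scaling, upper-quartile scaling and DESeq2, 2 were higher and 5 lower. With the covariate for RNA of other cells, 4 were higher and 5 lower. Ptpn7, a tyrosine phosphatase of ERK and p38 in blood cells, rose by 1.23 with a standard error of 0.11, and Spry2, a feedback inhibitor upstream of ERK, fell by 1.07 with a standard error of 0.17 (adjusted p = 2.95e-06 and 2.70e-04). The phosphatases of this pathway were therefore not all lower in Cxcr2-/- neutrophils.

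**Figure D5:**
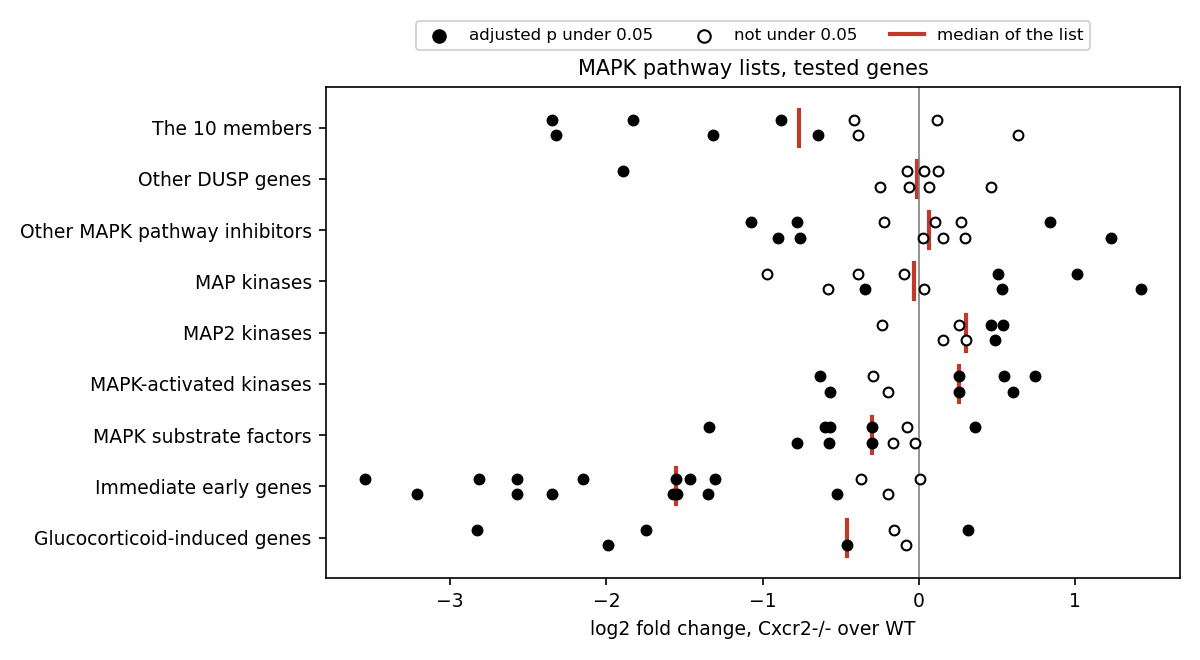
Log2 fold change of Cxcr2-/- over WT for each tested gene of the 10 members and of 8 lists of the MAPK pathway, filled where the adjusted p was under 0.05, with the median of each list in red. The immediate early genes lie furthest to the left, with a median of -1.56, and the MAP2 kinases to the right, with a median of 0.30.

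Immediate early genes, which respond to MAPK activity within minutes and to which Dusp1, Dusp2 and Dusp5 are related by their induction, were lower in 14 of 17 cases and higher in 0, with a median of -1.56. Egr1, a transcription factor induced through ERK, fell by 3.54 with a standard error of 0.45 on the log2 scale (edgeR, adjusted p = 4.86e-05). Of 11 transcription factors phosphorylated by MAP kinases 7 were lower and 1 was higher, with a median of -0.30. Ddit3, the stress factor CHOP, fell by 1.34, whereas Elk1, the ERK target at serum response elements, was at 0.36 (adjusted p = 1.83e-06 and 0.025) and did not pass with upper-quartile scaling (adjusted p = 0.11). Glucocorticoids also induce Dusp1, and of 7 genes that they induce 4 were lower and 1 was higher, with a median of -0.46. Zbtb16 fell by 2.83 with a standard error of 0.11 and Fkbp5 was at 0.31 with a standard error of 0.10 (adjusted p = 9.05e-09 and 0.025), and Fkbp5 did not pass with upper-quartile scaling (adjusted p = 0.13).

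Among the genes outside the family, those whose deviations from their own genotype's mean followed Dusp1 most closely over the 8 libraries were Cd14 (Pearson r = 0.993), Ddx28 (0.989), Rpl13 (0.984), Rpl18 (0.982) and Fos (0.981). Within the family, the r with Dusp1 was 0.913 for Dusp5, 0.871 for Dusp3, 0.826 for Dusp16 and 0.824 for Dusp2, and it was 0.152 for Dusp7 and -0.199 for Dusp4. These values describe 8 libraries whose depth and scaling all genes share, and Dusp1 varied more, relative to its mean, between the Cxcr2-/- libraries than between the WT libraries. They were chosen as the highest of all tested genes outside the family, and they did not all move with the genotype as Dusp1 did. Cd14 and Fos were lower, at -0.95 and -2.82, Rpl13 was higher, at 0.60, and Ddx28 and Rpl18 did not pass (edgeR, adjusted p = 6.71e-04, 4.93e-06, 0.0085, 0.93 and 0.067).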

How the data were processed

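RNA of sorted spleen neutrophils from 4 WT and 4 Cxcr2-/- mice was depleted of ribosomal RNA and made into directional libraries. The authors checked the reads with FastQC and trimmed them, used STAR for alignment to mm10 and HTSeq for counting, and the deposited values are whole-number counts per gene without normalization. The strand setting, the annotation release and the versions of these tools are not given in the sources used here. Of 55414 identifiers, 52133 were matched to GENCODE M21 (GRCm38), and the other 3281 held 1.42% of the counts. Pairs that HTSeq assigned to no feature, which need not lie outside genes, made up 26.7% to 41.5% of the totals and were left out.

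Groups and replicate numbers came from the labels. Counts were tested in R 4.3.3 with edgeR 4.0.16 (quasi-likelihood test, TMM, filterByExpr, Benjamini-Hochberg adjustment over 16778 genes) on all 8 libraries without a block. Intervals of log2 fold changes are 95% intervals with 6 residual degrees of freedom. The scripts were tested on simulated data. Alternatives were DESeq2 1.42.0, other scalings and filters, a replicate block, a covariate for RNA of other cells and each library left out. Of 18 in all, 2, which leave out a pair of Cxcr2-/- libraries, were added after the values were seen.

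The members and lists were chosen with earlier results of these data known. Named are all 10 members, the largest rise and fall that passed in each list, the 5 genes most like Dusp1, and Cxcr2. Also named are the markers Elane, Mpo, Prtn3, Ctsg, Ltf, Ngp, Camp, Mki67, Top2a, S100a8, S100a9, Csf3r, Ptprc, Ly6g, Retnlg, Mmp8, Csf1r, C1qa, Adgre1, Vcam1, Cd3d, Cd3e, Cd8a and Cd4, and Mapk3. These were chosen after their values were seen, as were the overlapping genes. Rps6ka4 and Spry3 were not analysed here, nor was the promoter of Dusp4 or any protein sequence.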

Additional observations from a re-analysis of the deposited data

How the results depend on the processing

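All 6 down-regulated members kept their direction and an adjusted p under 0.05 in each of the 18 alternatives, with ranges of log2 fold changes of -2.88 to -1.97 for Dusp1, -3.36 to -1.73 for Dusp2, -2.53 to -1.36 for Dusp5, -1.0 to -0.79 for Dusp6, -1.44 to -1.21 for Dusp7 and -0.90 to -0.44 for Dusp16. The smallest falls of Dusp1, Dusp2, Dusp5 and Dusp16 were those without Cxcr2-/- replicates 1 and 2, and the largest those without replicates 3 and 4. Dusp4 did not pass in any alternative and ranged from -0.51 to -0.25. The other 3 members under 5 CPM, Dusp3, Dusp10 and Dusp22, changed direction with the setting, and the cause was not tested. Dusp3 was at 1.51 and passed with the covariate for RNA of other cells, was at 1.30 and passed without Cxcr2-/- replicates 1 and 2, so that 1 member was up-regulated in each of these settings, and was at -0.65 without replicates 3 and 4. Dusp22 was at 0.44 with the covariate, at 0.23 without Cxcr2-/- replicates 1 and 2 and at -1.65, which passed, without replicates 3 and 4. Dusp10 ranged from -0.19 to 0.33 with each library left out was at 0.71 with the covariate (adjusted p = 0.099) and at 0.56 without Cxcr2-/- replicates 1 and 2, and was at -0.53 without replicates 3 and 4. It passed in none of these. With no fold threshold 3969 genes were higher. The counts of Dusp3, Dusp4, Dusp10 and Dusp22, from 16 to 178 per library, limit what can be seen of them.

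The labels do not say whether the replicate numbers pair the samples, and so few libraries cannot settle it. Deviations of libraries with the same number correlated at 0.15, -0.19, 0.24 and -0.31. With the replicate number as a block, 2470 genes were higher and 2518 lower, 6 members were down-regulated, and no member changed its call.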
